A study of Mus musculus with 18 samples.

Results

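The genes described here build and remodel the extracellular matrix of the embryonic heart. They are 44 named genes, taken from 28563 genes with summed counts, and comprise laminin chains, type IV collagen and nidogens, heparan sulphate proteoglycans, hyaluronan and chondroitin sulphate proteoglycans, fibronectin and elastic fibre genes, matricellular genes, matrix proteases and their inhibitors. The members were listed by name, with no threshold on a measured value, and all 44 were found. They were chosen with earlier results of these data known. Ventricles of mouse embryos at E14.5 were profiled by sequencing of polyA RNA in 18 libraries. There were 3 libraries of wild type (WT), 3 each of Irx3KO and Irx4KO, 3 of double heterozygotes (dHet, Irx3 and Irx4 both heterozygous) and 6 of double knockouts (DKO, Irx3 and Irx4 both knocked out), all at this stage. The labels name the double knockouts Irx3KO_Irx4KO, shortened here to DKO. Irx3 and Irx4 are Iroquois homeobox transcription factors expressed in the ventricle, and the series asks how they act together in the compaction of the ventricular wall. The labels do not give the alleles, the strain or whether a library is 1 embryo. A p-value here thus reflects variation from library to library, part of which may be technical.

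The basement membrane is a thin sheet of laminin and type IV collagen networks, linked by nidogens and the proteoglycan perlecan, that lies around cardiomyocytes and under the endocardium. Between endocardium and myocardium the early heart also holds cardiac jelly, a matrix rich in hyaluronan and versican. Secreted metalloproteases of the ADAMTS family cleave versican, and the tolloid proteases mature procollagens and other matrix proteins.

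The libraries fell into a pair of sets that stand apart with transcript length, a division that the labels do not name. All 3 WT libraries and DKO 5, 7 and 10 are called set 1 here. DKO 2, 3 and 4 and all dHet, Irx3KO and Irx4KO libraries are set 2. Genotypes were compared inside a set, except in an alternative fit with no set term, which pooled DKO of both sets. Libraries held between 26721576 and 45946741 estimated counts. Irx3 lay between 2.58 and 4.33 CPM (counts per library, scaled to equal totals) in the libraries labelled Irx3KO or DKO, between 22.1 and 28.5 CPM in WT and Irx4KO and between 12.8 and 13.3 CPM in dHet. Irx4 RNA was not lower in the libraries labelled as homozygous for Irx4 loss in either set. In set 1 it stood at 218 to 282 CPM in DKO and 78.7 to 126 CPM in WT. In set 2 it stood at 216 to 239 CPM in Irx4KO and DKO, 176 to 191 CPM in dHet and 135 to 158 CPM in Irx3KO. The deleted part of Irx4 is not given in the sources used here, so this level does not check the label, and every statement on Irx4 genotype below rests on the labels. All 8 ventricular cardiomyocyte markers were present in every group, with summed levels between 29001 and 35412 CPM. Y-linked counts were near 0 in WT 3, dHet 2 and DKO 4.

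The members covered a wide range of levels per length, given as TPM, which scales counts for transcript length and library total. Over 18 libraries, 11 members had a median level over 100 TPM, 24 lay between 10 and 100 TPM, 7 between 1 and 10 TPM and 2 at or under 1 TPM. Sparc, a collagen-binding matricellular glycoprotein, had the highest median level at 1039 TPM. Next in order of level were Eln at 360 TPM, Col4a1 at 255 TPM, Bgn at 192 TPM, Lamc1 at 166 TPM, Fn1 at 164 TPM and Lamb1 at 159 TPM. At the low end were Tll1 at 1.39 TPM, Acan at 1.31 TPM, Adamts4 at 1.29 TPM, Lama1 at 0.348 TPM and Spock1 at 0.0288 TPM. Lamc1, Fn1 and Lamb1 had overlapping ranges over the 18 libraries, as did Tll1, Acan and Adamts4, so the order inside each of these groups lies within their spread. Spock1, a testican, reached at most 0.253 CPM and was the 1 member that did not pass the filter on low counts. The other 43 were tested.

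**Figure D1:**
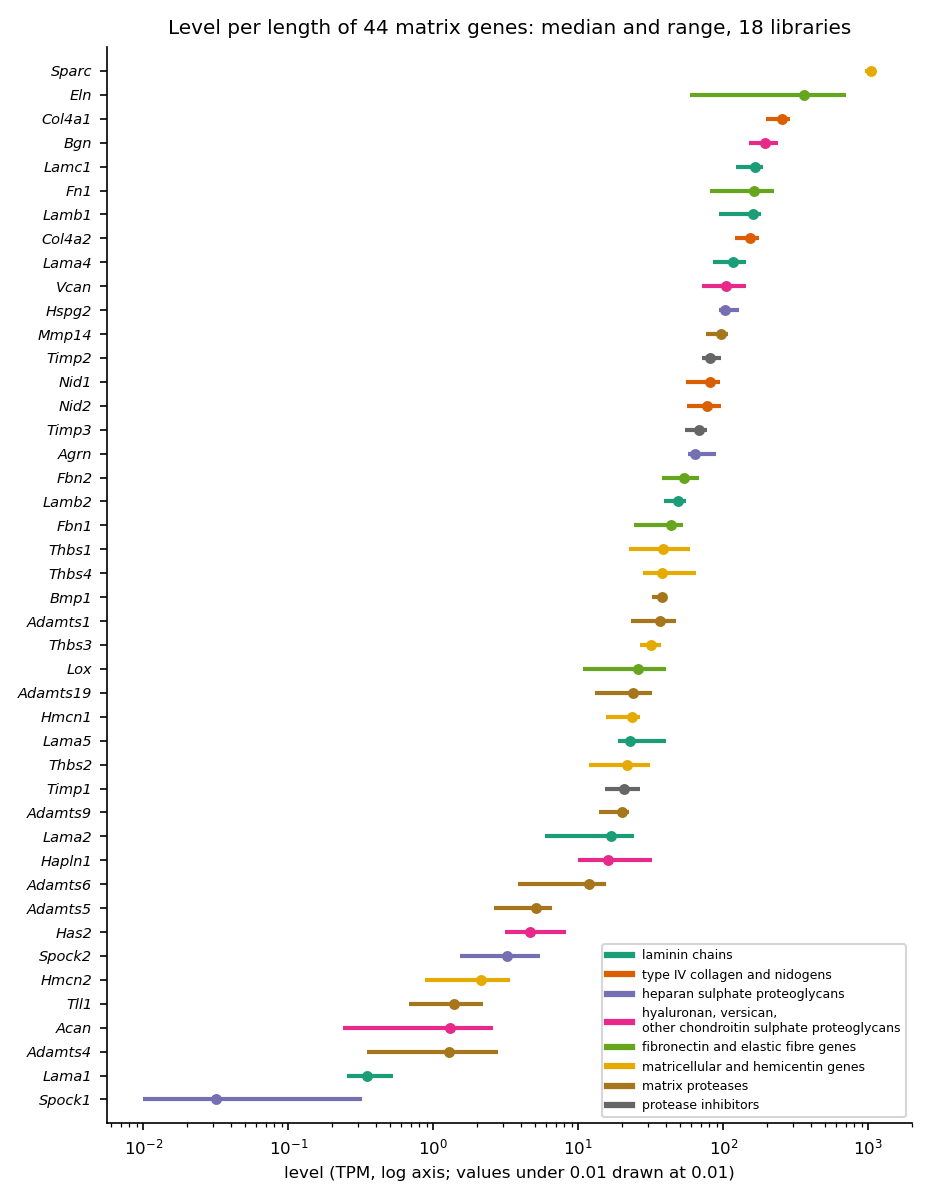
Level of each of 44 members in TPM (log axis, values under 0.01 drawn at 0.01), ordered by the median, with points at the median of 18 libraries and bars from the lowest to the highest library, coloured by role. Sparc has the highest median, and the bars of Eln, Acan and Adamts4 are among the widest.

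The spread between libraries of one genotype and set also differed between members. As the standard deviation of log2 CPM inside a genotype and set, its median over 43 members was 0.14. It was lowest for Sparc (0.04), Lamb1 (0.05), Lama4 (0.06) and Lamc1 (0.07), and Col4a1, Col4a2 and Timp2 also stood at 0.07. It was highest for Adamts4 (0.97), the chondroitin sulphate proteoglycan Acan (0.91), Eln (0.68) and Hapln1 (0.42). These laminin and type IV collagen genes were thus measured with little spread, and elastin and the hyaluronan link protein Hapln1 with more. Among the 3 DKO libraries of set 1, DKO 5 was the lowest for 29 of 43 members, and among the 3 dHet libraries dHet 3 was the lowest for 28.

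In set 1, 5 of 43 members changed between DKO and WT, 2 higher and 3 lower (edgeR quasi-likelihood F test, Benjamini-Hochberg adjusted p under 0.05). They were the matricellular gene Thbs4 and the hemicentin Hmcn2, both higher in DKO, and the testican Spock2 and the proteases Adamts6 and Tll1, all lower. This is 11.6% of the members tested, against 1.44% of all 16607 genes. The members were chosen with earlier results known, so shares set against all genes describe the list and are not a test of it. The median log2 fold change of the members was 0.03, with 23 above 0 and 20 below. Levels of DKO and WT did not overlap for 9 members (20.9%), against 15.0% of all genes. These were the 5 called members, with Eln, Lamb1, Hmcn1 and Adamts1, all 4 lower in DKO. Without WT 1 the count of called members was 2 (Thbs4 and Spock2), on set 1 alone 1 (Spock2) and by DESeq2 8. With no set term, where DKO of both sets is set against WT, it was 2. The background moved too. In place of 239 genes it was 67 when WT 1 was left out and 124 when WT 3 was. It was 576 when DKO 5 was left out and 527 when DKO 10 was. It was 105 with no set term, 16 on set 1 alone and 608 by DESeq2.

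**Figure D2:**
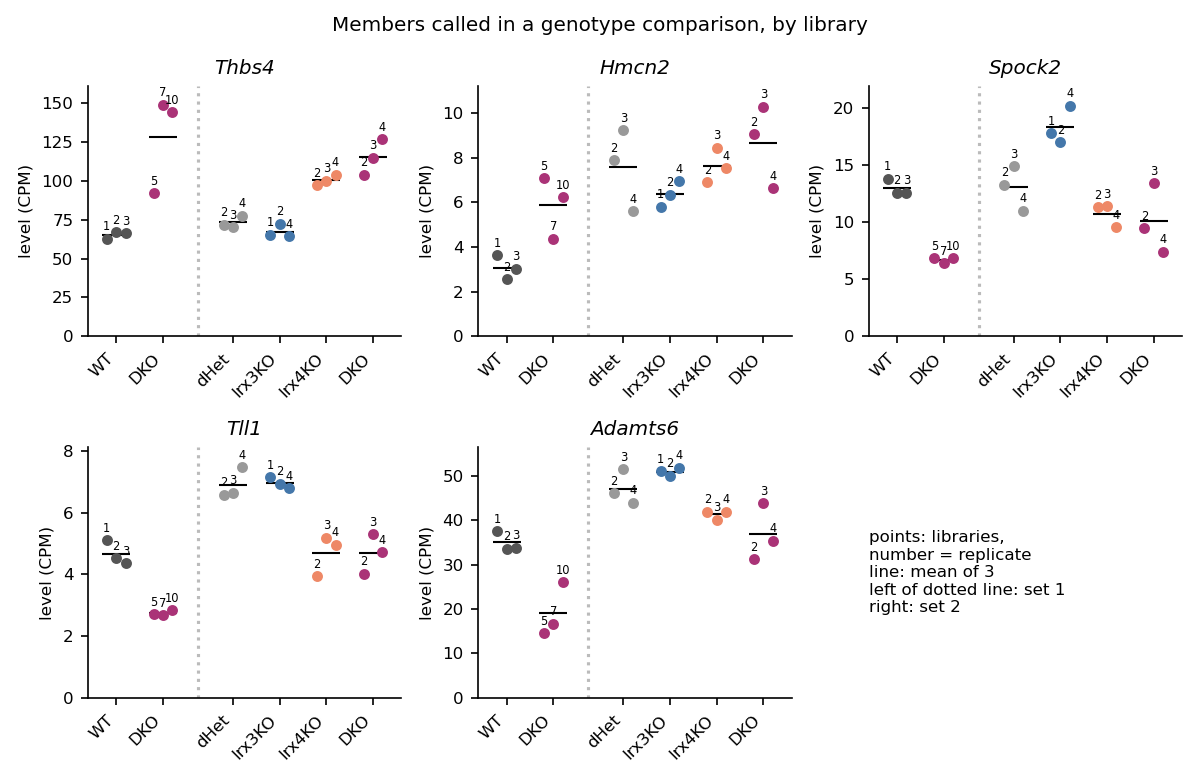
Levels in CPM (linear axis from 0) of the 5 members that edgeR called in a genotype comparison, with 1 point per library, its replicate number above it, and a line at the mean of 3 libraries. Set 1 is left of the dotted line and set 2 right of it. Thbs4 is highest in DKO of both sets, and Tll1 is lowest in DKO of set 1.

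Thbs4 encodes thrombospondin 4, a calcium-binding matricellular glycoprotein of heart, tendon and muscle. It stood at 62.7, 66.8 and 66.4 CPM in WT and at 92.1, 149 and 144 CPM in DKO of set 1. Every DKO library was above every WT library, and DKO 5 was the lowest of the 3. The log2 fold change was 0.98 ± 0.130 (SE), with an edgeR adjusted p of 0.0017. Without each of the 18 libraries in turn, it stayed called, between 0.86 and 1.17. Only the 6 libraries of set 1 enter this fold change. Here and below, leaving out a library outside a comparison alters the shared estimate of spread and leaves the fold change nearly the same. Fitted on set 1 alone, with 6 libraries, the log2 fold change of Thbs4 was 0.97 and was not called (adjusted p = 0.1).

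Thbs4 also changed in set 2, which shares no library with set 1. It stood at 71.9, 70.2 and 77.7 CPM in dHet, and at 65.3, 72.5 and 64.4 CPM in Irx3KO. In Irx4KO it stood at 97.4, 100 and 104 CPM, and in DKO at 104, 115 and 127 CPM. The 6 libraries labelled homozygous for Irx4 loss (Irx4KO and DKO) all lay above the other 6 (Irx3KO, with no Irx4 mutation in its label, and dHet). The means were 108 ± 11.1 CPM and 70.3 ± 4.92 CPM (SD, n = 6 each), a log2 fold change of 0.61 ± 0.0915 with an edgeR adjusted p of 0.0037. That call held without each library in turn, between 0.58 and 0.65.

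Spock2 encodes testican 2, a secreted proteoglycan with a calcium-binding domain like that of SPARC. It stood at 13.8, 12.6 and 12.6 CPM in WT and at 6.86, 6.43 and 6.84 CPM in DKO of set 1. The groups did not overlap, and in log2 terms DKO minus WT was -0.96 ± 0.165 (edgeR adjusted p = 0.0083), and it stayed called without each library in turn and on set 1 alone. In set 2 the level was 13.3, 14.9 and 11.0 CPM in dHet and 17.8, 17.0 and 20.2 CPM in Irx3KO. It was 11.3, 11.4 and 9.54 CPM in Irx4KO and 9.47, 13.4 and 7.43 CPM in DKO. Irx3KO was the highest group, and the libraries with homozygous Irx4 loss overlapped with dHet. Their log2 fold change against the other 6 was -0.57 ± 0.115 (edgeR adjusted p = 0.025). That call was lost without any one of dHet 2, dHet 3, Irx3KO 1, Irx3KO 4, Irx4KO 2, Irx4KO 3, Irx4KO 4 or DKO 2, with an adjusted p between 0.05 and 0.077.

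Tll1 encodes tolloid-like 1, an astacin metalloprotease of the BMP1 family that is needed for septation of the mouse heart. It stood at 5.11, 4.53 and 4.37 CPM in WT and at 2.72, 2.67 and 2.84 CPM in DKO of set 1, with no overlap. DKO minus WT was -0.77 ± 0.136 on the log2 scale (edgeR adjusted p = 0.0094). The call was lost without WT 1 (-0.69, adjusted p = 0.054) and on set 1 alone (adjusted p = 0.18). In set 2 the level was 6.59, 6.65 and 7.49 CPM in dHet, 7.16, 6.95 and 6.80 CPM in Irx3KO, 3.95, 5.19 and 4.97 CPM in Irx4KO and 4.03, 5.30 and 4.73 CPM in DKO. All 6 libraries with homozygous Irx4 loss lay below the other 6. Their means were 4.69 ± 0.580 CPM and 6.94 ± 0.338 CPM (SD, n = 6 each). This difference of -0.56 ± 0.0939 on the log2 scale was called (edgeR adjusted p = 0.0071) and held without each library in turn. Bmp1, the other tolloid protease measured, had a log2 fold change of 0.03 in set 1 (adjusted p = 0.89) and of 0.05 in set 2 (adjusted p = 0.83).

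Adamts6 encodes a secreted metalloprotease of the ADAMTS family that is needed for heart development in mice. It stood at 37.5, 33.6 and 33.8 CPM in WT (35.0 ± 2.22, SD) and at 19.1 ± 6.15 CPM in DKO of set 1 (n = 3 each), with DKO 5 the lowest, DKO 7 at 16.7 CPM and DKO 10 at 26.1 CPM. The groups did not overlap, and DKO 10 was nearest to WT. The log2 fold change was -0.87 ± 0.162 (edgeR adjusted p = 0.014). The call was lost without WT 1 (adjusted p = 0.063), without DKO 7 (0.054) and on set 1 alone (0.2). In set 2 it stood at 46.0, 51.4 and 43.9 CPM in dHet, 51.0, 50.0 and 51.8 CPM in Irx3KO, 41.9, 40.1 and 41.9 CPM in Irx4KO and 31.2, 43.8 and 35.4 CPM in DKO. The libraries with homozygous Irx4 loss all lay below the others, and the log2 fold change of -0.33 ± 0.112 was not called (adjusted p = 0.26). It was called on set 2 alone (0.03) and without DKO 10 (0.034), with the same fold change.

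Hmcn2 encodes hemicentin 2, a very large matrix protein with many immunoglobulin domains. It stood at 3.64, 2.57 and 3.03 CPM in WT and at 7.10, 4.38 and 6.23 CPM in DKO of set 1, with no overlap. DKO minus WT was 0.94 ± 0.213 on the log2 scale (edgeR adjusted p = 0.033). Its call was the least stable of the 5. It was lost without WT 1, WT 2, WT 3, DKO 5, DKO 10 or Irx4KO 4 (adjusted p between 0.05 and 0.12), with embryo sex as a covariate (0.079), on set 1 alone (0.24) and with counts rebuilt from TPM (0.34). In set 2 it ran from 5.60 CPM in dHet 4 to 10.3 CPM in DKO 3, and no comparison there called it. Its counts were split over 4 transcripts. The largest transcript held between 48.2% and 85.1% of a library's Hmcn2 counts. The summed counts do not depend on how kallisto shared reads among these transcripts, but TPM and counts rebuilt from TPM do. In Thbs4 and Spock2 a single transcript held at least 99.2% of the counts.

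Of these genes, Thbs4, Spock2 and Tll1 were the 3 called both between DKO and WT in set 1 and for homozygous Irx4 loss in set 2. Their promoters are shown for that reason, as the 250 bases before the annotated start, 5′ to 3′ on the strand of the gene, from RefSeq (GRCm38.p6). Thbs4 is at chr13:92794819-92795068 on the minus strand, Spock2 at chr10:60106007-60106256 on the plus strand and Tll1 at chr8:64206009-64206258 on the minus strand. Capitals mark matches on either strand to 6 motifs chosen after the values were seen: the letters ACANNTGT, known to be bound by Iroquois proteins, the GC box GGGCGG, the GATA factor motif AGATAA, the TEAD factor motif GGAATG, the T-box factor motif GGTGTG and the TATA box TATAAA.
Thbs4: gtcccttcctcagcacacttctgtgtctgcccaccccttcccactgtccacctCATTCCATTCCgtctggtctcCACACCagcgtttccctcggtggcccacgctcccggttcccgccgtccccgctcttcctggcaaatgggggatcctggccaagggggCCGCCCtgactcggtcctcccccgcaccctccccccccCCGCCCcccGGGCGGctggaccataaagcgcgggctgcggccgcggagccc
Spock2: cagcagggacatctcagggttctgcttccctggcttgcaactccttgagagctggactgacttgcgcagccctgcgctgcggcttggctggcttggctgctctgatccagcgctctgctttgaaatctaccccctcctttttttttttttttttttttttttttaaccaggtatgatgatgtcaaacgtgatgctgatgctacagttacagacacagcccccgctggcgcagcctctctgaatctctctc
Tll1: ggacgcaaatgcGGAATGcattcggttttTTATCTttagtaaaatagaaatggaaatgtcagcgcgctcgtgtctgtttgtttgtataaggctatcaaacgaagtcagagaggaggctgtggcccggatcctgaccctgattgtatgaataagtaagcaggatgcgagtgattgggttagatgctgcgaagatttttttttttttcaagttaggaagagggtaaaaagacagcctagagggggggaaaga
The Thbs4 window held 3 GC boxes, 2 overlapping matches to the TEAD motif and 1 to the T-box motif, and the Tll1 window held 1 match each to the TEAD and GATA motifs. The Spock2 window held none of the 6. RefSeq promoters were matched for 29 of the 44 members, Adamts6 not among them. The letters ACANNTGT were in 0 of the 29, against 6.31% of all 32851 promoter windows of this length. The GC box was in 65.5% of the 29 against 32.7%, the TEAD motif in 20.7% against 12.6%, the T-box motif in 13.8% against 16.3%, the GATA motif in 3.45% against 9.99% and the TATA box in 6.90% against 12.4%. A match is a description of these letters and not a bound site.

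Position on the chromosome also moves with genotype. Irx4 is on chromosome 13 and Irx3 on chromosome 8 (GENCODE M21). Thbs4 and Adamts6 are on chromosome 13, with Nid1, Vcan, Hapln1 and Spock1, and Tll1 is on chromosome 8, with Col4a1 and Col4a2. DNA linked to a mutant allele and the loss of the gene on the same chromosome cannot be told apart for these 9 members. In set 2, Tll1 differed with the label of Irx4, which is on the other chromosome. It stood at 6.97 CPM in Irx3KO and 4.69 CPM in DKO, both labelled as Irx3 knockouts. Irx4KO stood at 4.70 CPM and dHet at 6.91 CPM. The part of linked DNA in these values was not tested. Spock2 is on chromosome 10 and Hmcn2 on chromosome 2.

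Laminin chains form the cross-shaped trimers that polymerise into the basement membrane, and edgeR called none of the 7 in a genotype comparison. Lama4, an alpha chain of vascular and myocardial basement membranes, had the smallest p among them in set 2. It stood at 569, 544 and 535 CPM in dHet, 542, 555 and 520 CPM in Irx3KO, 498, 498 and 491 CPM in Irx4KO and 465, 469 and 458 CPM in DKO. All 6 libraries with homozygous Irx4 loss were below the other 6, with means of 480 ± 17.9 and 544 ± 16.8 CPM (SD, n = 6 each). The log2 fold change was -0.18 ± 0.0424 and missed the threshold (edgeR adjusted p = 0.057). DESeq2 called it (adjusted p = 7.3e-04), and edgeR called it on set 2 alone (0.0047), with the replicate block (0.047), with RLE factors (0.047), with the filter of 1 CPM in 3 libraries (0.036) and without WT 3, DKO 5, DKO 7 or DKO 10 (0.019 to 0.045). DESeq2 also called Lama4 lower in DKO than in Irx3KO (-0.22, adjusted p = 0.016) and than in dHet (-0.25, adjusted p = 0.0051), as did edgeR on set 2 alone (0.016 and 0.014). Without DKO 5 edgeR called it against dHet (0.048). Lamb1 was also lower without overlap in both sets, by small amounts: -0.14 in set 1 (adjusted p = 0.25, and -0.21 with 0.038 without DKO 10) and -0.09 in set 2 (adjusted p = 0.42).

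The laminin chain with the smallest p in set 1 was Lama5, an alpha chain of epithelial and vascular membranes. It stood at 111, 116 and 121 CPM in WT and at 153, 119 and 143 CPM in DKO, with overlap, and its log2 fold change was 0.26 ± 0.0936 (edgeR adjusted p = 0.22). Over the 7 chains the median was 0.03 in set 1 and -0.07 for homozygous Irx4 loss in set 2.

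Type IV collagen and the nidogens, the other scaffold genes of the basement membrane, gave no call by edgeR among 4 members in a genotype comparison. Col4a1 stood at 1093 ± 61.1 CPM in WT and 1081 ± 50.8 CPM in DKO of set 1 (SD, n = 3 each). Its log2 fold change of -0.02 had a 95% interval from -0.15 to 0.12. The smallest p in set 1 was that of Nid2, at 215, 248 and 221 CPM in WT and 213, 250 and 293 CPM in DKO (0.14 ± 0.101, adjusted p = 0.57). In set 2 it was that of Col4a2. Its level was 747, 719 and 762 CPM in dHet, 765, 745 and 734 CPM in Irx3KO, 668, 734 and 725 CPM in Irx4KO and 698, 758 and 627 CPM in DKO. The groups overlapped, and homozygous Irx4 loss gave -0.09 ± 0.0456 (edgeR adjusted p = 0.54). The exons of Col4a1 and Col4a2 overlap on opposite strands, as do those of 17 members in all with another gene, none of them called by edgeR in a genotype comparison. DESeq2 called Eln and Hmcn1 among them, as given below. With the strand setting unknown, reads of such pairs may not be told apart.

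Of the other heparan sulphate proteoglycans, perlecan (Hspg2) and agrin (Agrn) were not called. Hspg2 had a log2 fold change of 0.05 in set 1 (95% interval -0.13 to 0.22) and of -0.17 ± 0.0572 for homozygous Irx4 loss in set 2 (edgeR adjusted p = 0.24). Agrn had 0.11 in set 1 and -0.03 in set 2.

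Among hyaluronan and chondroitin sulphate proteoglycan genes edgeR called none of 5. With TMM scaling their log2 fold changes ran from 0.01 to 0.28 in set 1 and from 0.17 to 0.66 for homozygous Irx4 loss in set 2. The median log2 fold change was 0.20 in set 1 and 0.31 for homozygous Irx4 loss in set 2, against 0.03 and 0.05 over the 43 members. Vcan, which encodes the cardiac jelly proteoglycan versican, stood at 432, 604 and 455 CPM in WT and 517, 508 and 690 CPM in DKO of set 1. The groups overlapped and the log2 fold change was 0.20 ± 0.164 (adjusted p = 0.64). Bgn, the small leucine-rich proteoglycan biglycan, had the smallest p of this group in set 2. It stood at 299, 233 and 294 CPM in dHet, 278, 284 and 278 CPM in Irx3KO, 362, 350 and 318 CPM in Irx4KO and 318, 327 and 312 CPM in DKO. Every library with homozygous Irx4 loss was above the other 6. The log2 fold change was 0.25 ± 0.0662, not called by edgeR (adjusted p = 0.093) and called by DESeq2 (0.024) and by edgeR on set 2 alone (0.04).

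The hyaluronan synthase Has2, the link protein Hapln1 and Vcan were highest in the same library. DKO 4 of set 2 was the highest of 18 libraries for all 3, at 24.2 CPM for Has2, 113 CPM for Hapln1 and 894 CPM for Vcan. It was also the highest for Thbs1, at 236 CPM, and for Nid2, at 328 CPM. The other DKO libraries of set 2 stood at 14.1 and 12.9 CPM for Has2 and at 69.1 and 55.6 CPM for Hapln1. The Has2 values lay within the range of the other genotypes of that set, and Hapln1 in DKO 2 lay just above their highest library (67.7 CPM in Irx3KO 2).

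**Figure D3:**
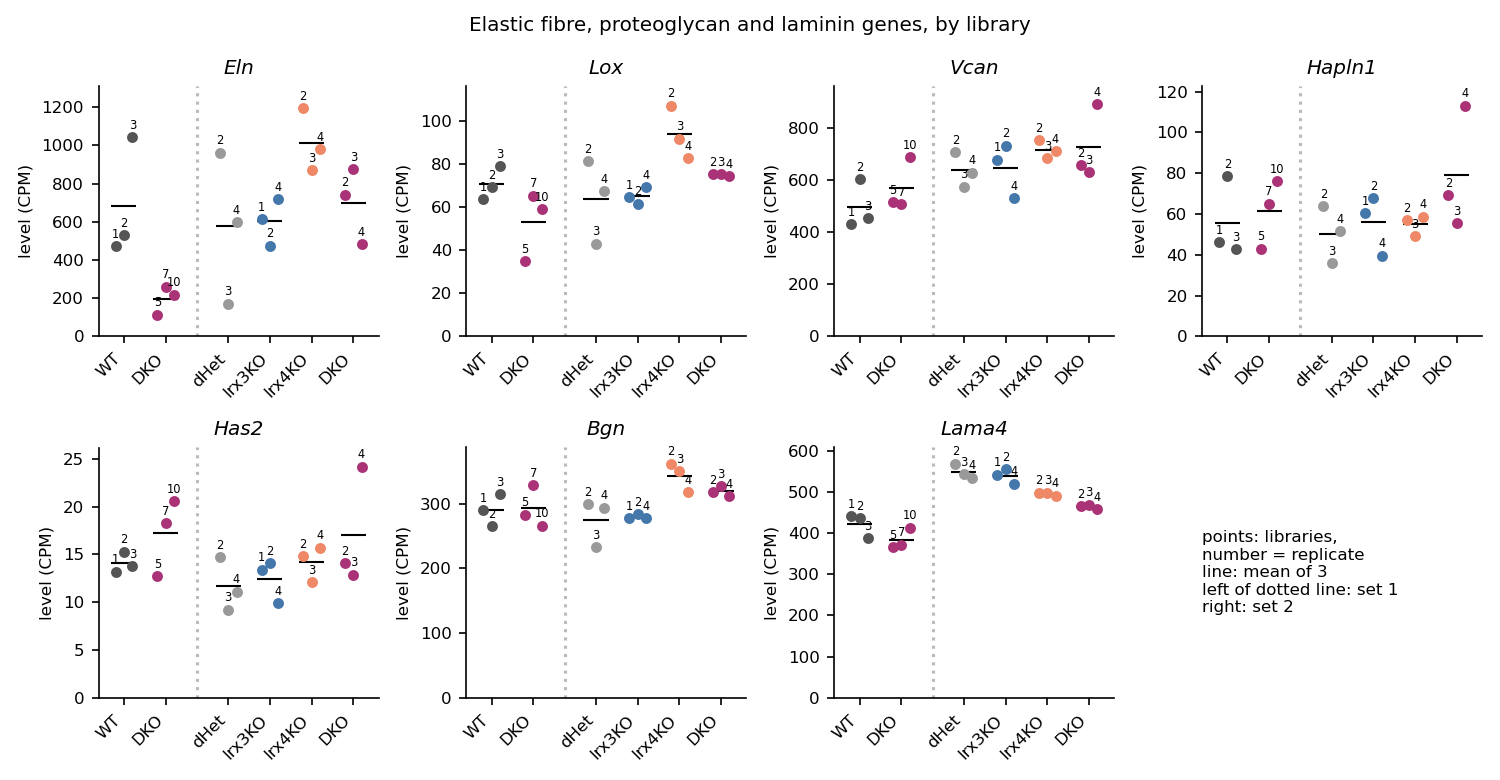
Levels in CPM (linear axis from 0) of 7 members that edgeR did not call in a genotype comparison (DESeq2 called Eln, Bgn and Lama4), with 1 point per library, its replicate number above it, and a line at the mean of 3 libraries. Set 1 is left of the dotted line and set 2 right of it. Eln is low in the 3 DKO libraries of set 1 and in dHet 3, and Lama4 is lower in Irx4KO and DKO of set 2 than in dHet and Irx3KO.

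Among the elastic fibre genes, Eln varied most between libraries of one group. Eln, which encodes elastin, stood at 471, 528 and 1044 CPM in WT and at 113, 260 and 218 CPM in DKO of set 1. All 3 DKO libraries were below WT. The log2 fold change of -1.79 ± 0.534 had a 95% interval from -2.95 to -0.63 and was not called by edgeR (adjusted p = 0.14), while DESeq2 called it (0.0082), as did edgeR without dHet 3 (0.042). In set 2 DKO stood at 742, 874 and 482 CPM, inside the range of dHet at 962, 171 and 599 CPM, so the low level of DKO was not seen there. Irx3KO stood at 614, 474 and 718 CPM and Irx4KO at 1194, 869 and 979 CPM. The highest level over 18 libraries was 10.6 times the lowest.

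Lox, the lysyl oxidase that crosslinks elastin and collagen, stood at 63.5, 69.1 and 79.0 CPM in WT and at 34.8, 65.3 and 58.9 CPM in DKO of set 1. In set 2 it stood at 81.3, 43.0 and 67.2 CPM in dHet, 64.7, 61.6 and 69.3 CPM in Irx3KO, 107, 91.7 and 82.8 CPM in Irx4KO and 75.3, 75.1 and 74.3 CPM in DKO. Irx4KO was above dHet without overlap, with a log2 fold change of 0.55 ± 0.220 that was not called (edgeR adjusted p = 0.81). Its lowest libraries, DKO 5 and dHet 3, were also the lowest for Eln. Fibronectin (Fn1) and the fibrillins (Fbn1 and Fbn2) had log2 fold changes of -0.08, -0.11 and 0.19 in set 1, with adjusted p of 0.87, 0.67 and 0.45.

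Of the other matricellular and hemicentin genes, edgeR called none in a genotype comparison. Hmcn1 was lower in DKO than in WT without overlap, at 62.7, 66.1 and 84.9 CPM against 91.5, 96.7 and 91.9 CPM, with a log2 fold change of -0.39 ± 0.101 (edgeR adjusted p = 0.067). DESeq2 called it (0.012), as did edgeR without DKO 10 (-0.53, adjusted p = 0.0064), with the length trend removed (0.031) and with counts rebuilt from TPM (0.043). So the hemicentins Hmcn1 and Hmcn2 had fold changes of opposite sign in set 1. Of the thrombospondins other than Thbs4, log2 fold changes in set 1 were 0.45 for Thbs1, -0.42 for Thbs2 and 0.05 for Thbs3, with adjusted p of 0.45, 0.28 and 0.85. Sparc had 0.07 in set 1 and 0.10 for homozygous Irx4 loss in set 2 (edgeR adjusted p of 0.54 and 0.25). DESeq2 called the latter (0.044) and a lower level in Irx3KO than in Irx4KO (-0.14, adjusted p = 0.048).

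Proteases and inhibitors ended the list. Of 9 proteases, 7 had log2 fold changes below 0 in set 1 with TMM scaling, with a median of -0.34. For homozygous Irx4 loss in set 2, 4 of 9 were below 0, with a median of 0.05. The calls in set 1 were Adamts6 and Tll1. Adamts1, which cleaves versican and aggrecan, came nearest among the rest. It stood at 125, 138 and 129 CPM in WT and at 86.4, 91.9 and 108 CPM in DKO, with no overlap and a log2 fold change of -0.45 ± 0.111 (edgeR adjusted p = 0.051, DESeq2 adjusted p = 0.0062). The edgeR test also called it with the filter of 1 CPM in 3 libraries (0.04), with the length trend removed (0.046) and with counts rebuilt from TPM (0.043). So it did without DKO 10, dHet 2, dHet 3, DKO 3 or DKO 4 (0.021 to 0.048). In set 2 Adamts1 had -0.07 (adjusted p = 0.84). The aggrecanase genes Adamts4 and Adamts5 had -0.73 and -0.34 in set 1, with adjusted p of 0.71 and 0.39. The membrane-bound collagenase Mmp14 stood at -0.05 and Adamts9 at -0.03.

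The inhibitors Timp1, Timp2 and Timp3 block matrix metalloproteases, and edgeR called none. Timp1 stood at 10.2, 12.8 and 9.64 CPM in WT and 12.8, 13.5 and 13.1 CPM in DKO of set 1 (0.27 ± 0.125, adjusted p = 0.34). Timp2 had its smallest p between Irx3KO, at 167, 163 and 168 CPM, and Irx4KO, at 195, 194 and 183 CPM. Irx3KO was lower without overlap, by a log2 fold change of -0.20 ± 0.0631 (edgeR adjusted p = 0.27). With counts rebuilt from TPM, edgeR called Timp2 higher with homozygous Irx4 loss (0.24, adjusted p = 0.031).

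**Figure D4:**
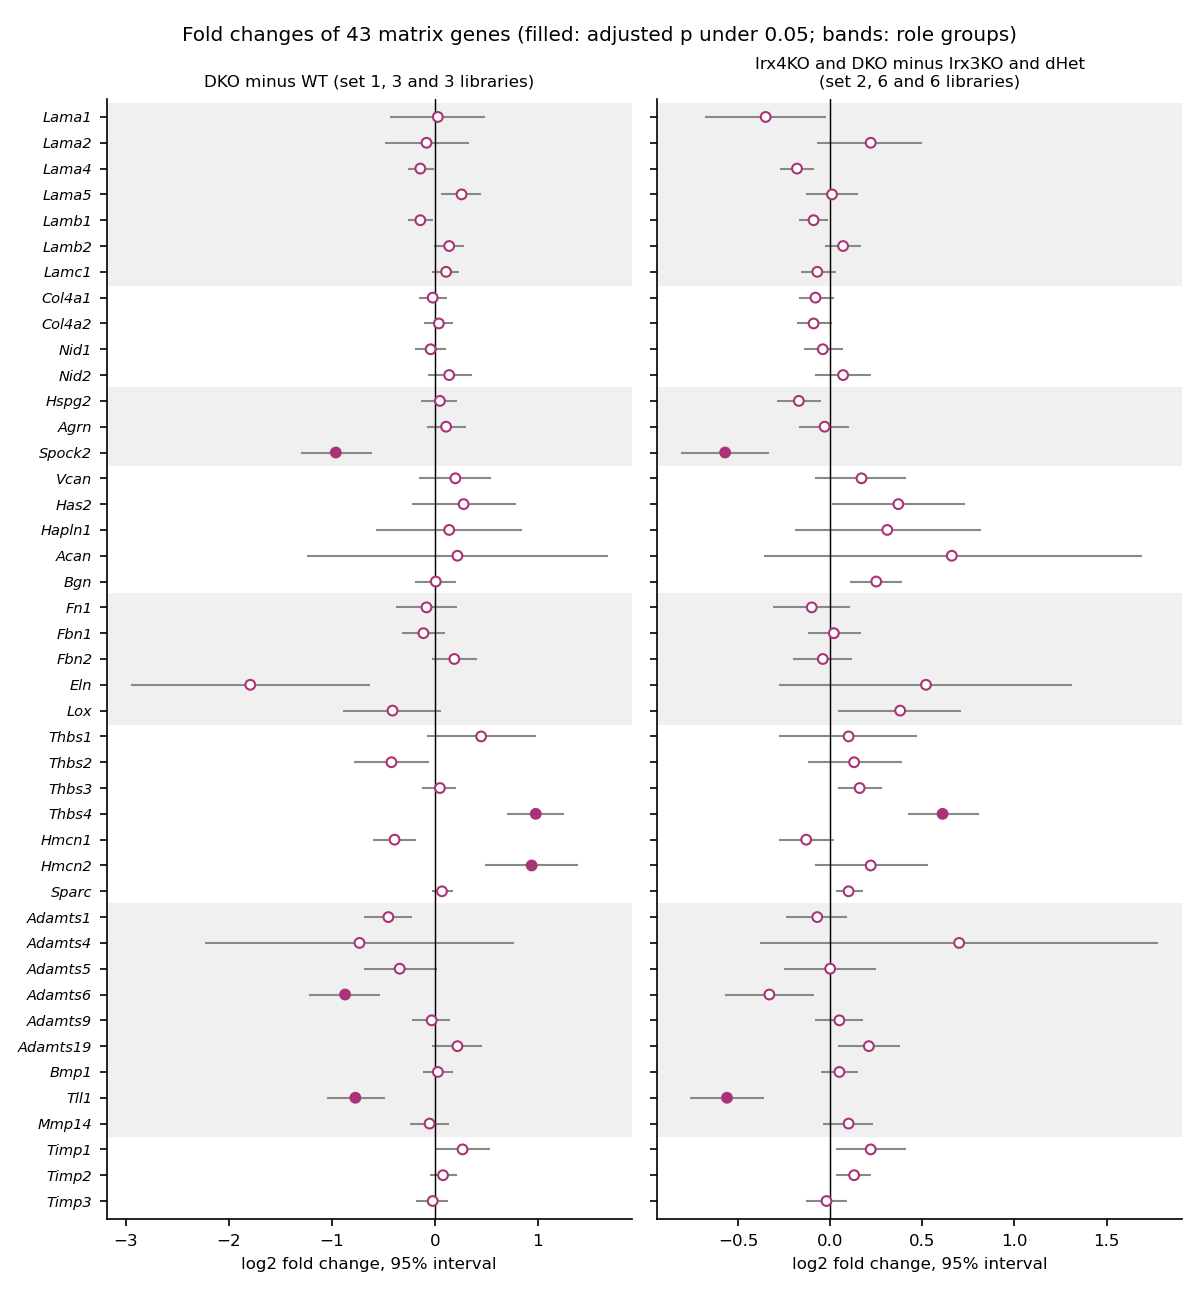
Log2 fold change of 43 members with its 95% interval, grouped by role in bands, for DKO minus WT in set 1 (left) and for Irx4KO and DKO minus Irx3KO and dHet in set 2 (right). The x axes differ in scale. Filled points have an adjusted p under 0.05: Spock2, Thbs4, Hmcn2, Adamts6 and Tll1 on the left, and Spock2, Thbs4 and Tll1 on the right.

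The comparisons of set 2 share libraries and are given side by side. For homozygous Irx4 loss, 3 of 43 members changed (Thbs4 higher, Spock2 and Tll1 lower), against 0.813% of all genes. The groups did not overlap for 6 members (14.0%), against 1.88% of all genes. They were Thbs4 and Bgn, both higher, and Tll1, Lama4, Lamb1 and Adamts6, all lower. As in set 1, these shares describe a list chosen with earlier results known and are not a test of it. Without DKO 10 the count of called members was 5 in place of 3. For homozygous Irx3 loss, the 6 Irx3KO and DKO libraries against the 6 Irx4KO and dHet libraries, edgeR called 0 of 43 members (0.0241% of all genes), with 2 at an unadjusted p under 0.05 and 0 by DESeq2.

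DKO against Irx3KO, which differ in the Irx4 label, called 2 of 43 members, against 0.379% of all genes. Thbs4 was higher in DKO (0.77 ± 0.130, adjusted p = 0.014) and Spock2 lower (-0.86 ± 0.162, adjusted p = 0.026). Without Irx3KO 1, Irx3KO 4 or DKO 4 neither was called (adjusted p of 0.084 to 0.1 for Thbs4 and 0.11 to 0.15 for Spock2). Without Irx3KO 2 or DKO 2 the call of Spock2 alone was lost (0.066 and 0.14). Tll1 was next, at -0.57 (adjusted p = 0.084). DKO against Irx4KO, which differ in the Irx3 label, gave 0 calls by edgeR and by DESeq2, with 2 members at an unadjusted p under 0.05, against 0.0241% of all genes.

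Against dHet, edgeR called 0 members in DKO (0.0903% of all genes called, 13 members at an unadjusted p under 0.05, 3 called by DESeq2). It called 0 in Irx4KO (0.0120% of all genes, 8 members at an unadjusted p under 0.05, 1 by DESeq2) and 0 in Irx3KO (0.00602%, 2 members, 0 by DESeq2). Thbs4 differed from dHet by 0.65 in DKO (adjusted p = 0.087) and by 0.46 in Irx4KO (adjusted p = 0.57). Tll1 differed by -0.56 in DKO and -0.55 in Irx4KO (adjusted p of 0.13 and 0.47). DKO 5 and DKO 7 are not in this comparison but share its estimate of spread. Without DKO 5 the DKO against dHet count was 2 and the Irx4KO against dHet count 1, and without DKO 7 the former was 1. Irx3KO against Irx4KO gave 0 calls by edgeR (0.289% of all genes called), with 10 members at an unadjusted p under 0.05 and 4 called by DESeq2. That count was 2 without DKO 5 and 1 without DKO 3, DKO 4 or dHet 4. Spock2 came nearest there, higher in Irx3KO by 0.77 (adjusted p = 0.057).

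The difference between the Irx4 loss measured in an Irx3KO background and in dHet was tested for these members, a test added after the data were seen. It was 0.32 ± 0.183 for Thbs4, -0.57 ± 0.229 for Spock2 and -0.02 ± 0.187 for Tll1, each with an edgeR adjusted p of 1.

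The set of libraries bears on long genes and many members are long. Their median mean transcript length was 5624 nt, against 2645 nt over all genes tested. In DKO, the genotype present in both sets, 15 of 43 members were higher in set 2 and 0 lower. Of all genes, 18.8% were called in either direction, 1618 higher and 1501 lower. The median log2 difference was 0.25. Of 25 members longer than 5000 nt, 11 were called, and of 18 shorter members 4 were. Spearman's rho of difference with length was 0.374 over the 43 members and 0.390 over 16607 genes, across genes that share libraries. Eln differed most, by 1.83, and at 2583 nt it is among the shorter members. Its log2 fold change between DKO and WT in set 1 was -1.79. Lama2 differed by 1.11, Hmcn1 by 0.86, Adamts6 by 0.95, Tll1 by 0.77 and Spock2 by 0.59, sizes like those of the genotype differences. Thbs4, a shorter member, differed by -0.16. Only the alternative fit with no set term, which pools DKO of both sets, compared WT of set 1 with libraries of set 2.

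**Figure D5:**
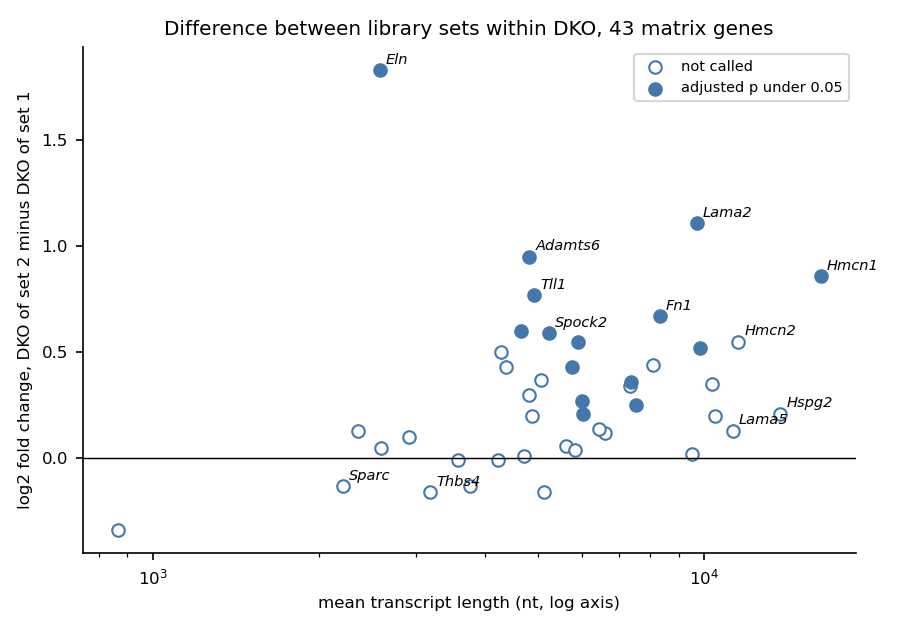
Log2 fold change between DKO of set 2 and DKO of set 1 against the mean transcript length of the gene (nt, log axis) for 43 members, 1 point per gene. Filled points have an adjusted p under 0.05. The called members are all above 0, and 11 of the 15 are longer than 5000 nt.

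Genes of the same pathways outside the 44 gave few calls. Between DKO and WT, 2 of 24 matrix receptors rose and 1 fell. Those that rose were the cell surface heparan sulphate proteoglycan Sdc4 (0.50 ± 0.0993, adjusted p = 0.018) and the collagen receptor Ddr1 (0.33 ± 0.0697, adjusted p = 0.024). The integrin alpha chain Itga9 fell by 0.59 on the log2 scale (61.5 ± 6.36 against 92.8 ± 2.72 CPM, adjusted p = 0.0023). In the same comparison edgeR called 0 of 12 other collagens, 0 of 17 other basement membrane genes, 0 of 21 elastic fibre and latent TGF-beta genes, 0 of 24 other proteoglycan and hyaluronan genes and 0 of 29 other proteases and inhibitors. At an unadjusted p under 0.05 these numbered 3, 3, 2, 3 and 7. For homozygous Irx4 loss in set 2 none of the 6 lists had a call. Of the elastic fibre and latent TGF-beta genes, 19 of 21 were above 0 there, with a median of 0.17. All 8 cushion and fibroblast markers (median 0.18) and all 7 epicardial markers (median 0.15) were also above 0 in that comparison, and their part in the former was not tested. Between DKO and WT in set 1, 6 of the 21 elastic fibre and latent TGF-beta genes were above 0, with a median of -0.05. There 6 of 8 cushion and fibroblast markers (median 0.07) and 5 of 7 epicardial markers (median 0.19) were above 0.

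In whole ventricle RNA, fewer cells of a type and less RNA per cell cannot be told apart, so levels of cell type markers are given beside the members. Atrial cardiomyocyte markers moved with genotype. In set 1 3 of 7 rose in DKO (Stard10 by 1.16, Myl7 by 0.94 and Myl4 by 0.43), and their summed level was 3795 to 4308 CPM in DKO against 2508 to 3317 CPM in WT. In set 2 it was 3041 to 3191 CPM in DKO, 2463 to 2688 CPM in Irx4KO, 2375 to 2460 CPM in Irx3KO and 1987 to 2677 CPM in dHet, and Stard10 rose with homozygous Irx4 loss (0.67, adjusted p = 0.02). The part of this change in the values of Thbs4, Spock2, Tll1, Adamts6 and Hmcn2 was not tested. Cushion and fibroblast markers, 8 genes that make much of the matrix, had 0 calls and summed to 3470 to 4918 CPM in WT and 3544 to 4387 CPM in DKO of set 1. In set 2 they summed to 4577 to 5518 CPM in dHet, 4906 to 5117 CPM in Irx3KO, 5435 to 6511 CPM in Irx4KO and 4684 to 5571 CPM in DKO. Endothelial, epicardial, smooth muscle, macrophage and erythroid lists also had 0 calls in either comparison.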

How the data were processed

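For each library the authors deposited a kallisto table of transcripts; per the file headers it holds lengths, estimated counts and TPM values. Version 0.42.2 of kallisto and the mm9 build come from the submitters' processing notes. Neither the transcript release nor the strand setting is given in the sources used here. The deposited estimated counts were summed per gene by transcript identifier in GENCODE M21 (GRCm38) and rounded. Of 88943 transcripts, 10913 had no gene, with 6.42% to 6.77% of a library's counts. Deposited TPM values were summed per gene to compare levels between genes. Deposited transcript lengths and effective lengths, other values, gave the mean length of each gene.

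Tests used edgeR 4.0.16 with R 4.3.3 (quasi-likelihood F test, robust, TMM, filterByExpr, 1 fit of 18 libraries in 6 cells of genotype by set, common dispersion 0.0207), with Benjamini-Hochberg adjustment over 16607 genes. Adjusted p-values are from this test unless DESeq2 1.42.0 is named. The set-alone fit used the libraries of 1 set. CPM uses TMM factors, shown as mean ± SD. The script was tested on simulated data.

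Members, lists and tests were chosen with earlier results of these data known. Named in every library are members called in a genotype comparison and, per role, the member with the smallest p in set 1 and in set 2. DKO 4 and the members outside this rule were named after their values were seen. Alternatives were RLE factors, DESeq2, other low-count filters, counts rebuilt from TPM, no set term, 1 set alone, a length trend, embryo sex, a replicate block, and leaving out each library. Promoter motifs and the difference between Irx3KO and dHet backgrounds were added after the data were seen.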

Additional observations from a re-analysis of the deposited data

How the results depend on the processing

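Of 275 alternative values of called members in the genotype comparisons, 240 kept their direction and call, 35 kept the direction and lost the call, and 0 turned. Many of these values leave out a library outside the comparison. That changes the shared estimate of spread but hardly the fold change, so the direction of such values could not turn. For the counts of called members, the cause of each move was not tested. DKO against WT, with 5 members called, gave 2 with no set term, 8 with DESeq2, 1 on set 1 alone and 2 to 7 leaving out each library in turn. DKO against Irx3KO, with 2, gave 5 with no set term, 4 with DESeq2, 4 on set 2 alone, 1 with embryo sex as a covariate and 0 to 2 leaving out a library. DKO against dHet, with 0, gave 4 with no set term, 3 with DESeq2, 2 on set 2 alone and 0 to 2 leaving out a library. Irx4KO against dHet, with 0, gave 1 with DESeq2, 1 on set 2 alone and 0 to 1 leaving out a library. Irx3KO against Irx4KO, with 0, gave 4 with DESeq2, 1 with no filter on low counts, 1 on set 2 alone and 0 to 2 leaving out a library. Homozygous Irx4 loss, with 3, gave 6 with DESeq2, 6 on set 2 alone and 2 to 5 leaving out a library. With no set term, Spock2, Adamts6 and Tll1 lost their calls against WT (adjusted p of 0.16, 0.76 and 0.63). That fit pools DKO of both sets, so the difference between the sets enters these values. The difference of Lamc1 between the sets turned to -0.06 with counts rebuilt from TPM.

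With the replicate number as a block (replicate block, set 2 alone), DKO against dHet gave 1 called member, DKO against Irx3KO 2 and homozygous Irx4 loss 4, and no other count changed. The block changes the libraries in the fit as well as its terms. Of 15 pairs of same-numbered libraries in set 2, 5 had a correlation of deviations over 0.1 (range -0.46 to 0.17). Pairs with different numbers ran from -0.31 to 0.47. Whether same-numbered libraries share more than a number was not tested. No paired analysis was possible for DKO against WT because the compared libraries share no replicate number. With 3 libraries a group, Acan, Adamts4, Eln, Hapln1, Has2 and Thbs1 had 95% intervals wider than 1 log2 unit in set 1. For these 6, precision limits what could be called.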

Other observations

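Eln, Lox, Fn1, Fbn1, Lama2, Hmcn1, Thbs2 and Adamts5 each had their lowest level of 18 libraries in DKO 5. So did Acan, Adamts1, Adamts6, Adamts9, Col4a1, Lama4, Nid1, Nid2 and Timp3. Has2, Hapln1, Thbs1, Bgn, Mmp14, Sparc, Thbs3 and Timp1 had theirs in dHet 3. The 18 libraries span both sets, between which many long members differ. In DKO 5, Eln stood at 113 CPM and Acan at 1.39 CPM, and in dHet 3 Eln stood at 171 CPM and Acan at 1.98 CPM. Lama2, the alpha chain of muscle basement membranes, ran from 45.8 CPM in DKO 5 to 171 CPM in Irx4KO 3. It was not called by edgeR or DESeq2 in a genotype comparison, and Irx3KO was below Irx4KO without overlap (111 ± 16.8 against 158 ± 11.5 CPM, log2 fold change -0.50 ± 0.189, edgeR adjusted p = 0.43).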
